A study of Rattus norvegicus with 31 samples.

Results

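Interleukins and their receptors were followed in peripheral blood mononuclear cells (PBMC) of adult rats, as the 78 array probes, of 41012, whose gene symbol begins with Il and a number. They stand for 59 genes: 35 probes for 29 cytokines, antagonists and binding proteins, and 43 probes for 30 receptors and receptor subunits. Il7r and Il1r2 were left out by the definition of the set, and none of their 4 probes passed the threshold in any comparison.

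The study profiled 31 blood samples, 1 array each, in 3 groups. WT (7 samples) were taken to be the animals the protocol calls controls, offspring of dams fed normally, since the sample titles say only WT. CR (11 samples) were offspring of dams given 20% less energy on days 1 to 12 of pregnancy, and were suckled without treatment. CR-L (13 samples) were offspring of equally restricted dams that received leptin, the satiety hormone of fat tissue, through lactation to postnatal day 21, in daily doses that grew from 1.0 to 43.8 ng, set at 5 times the intake from milk. All groups then ate chow freely for 4 months before blood was drawn. Offspring of both sexes came from 16 mated rats, and the labels give neither the sex nor the litter of a sample, so littermates may count as separate samples and p-values may be too small. Each array compared 1 sample (Cy5, red) with a common reference (Cy3, green) pooled from 5 samples of each group, with no dye swap. A value below is the log2 ratio of sample to reference, so 0 is the level of the pool, and it can be compared between samples but not between genes.

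Interleukins are secreted proteins by which leukocytes signal to each other. Those of the IL-1 family, such as IL-1β and IL-18, bind a ligand-specific chain plus an accessory chain and signal through Myd88, the Irak kinases and Traf6 to NF-κB. Most others bind receptors without enzyme activity that carry Jak kinases and activate Stat transcription factors, and many of these receptors share a chain: Il2rb serves IL-2 and IL-15, Il12rb1 serves IL-12 and IL-23, and Il6st (gp130) serves IL-6, IL-11 and IL-27. In resting blood, monocytes are the main source of IL-1β and of its antagonist Il1rn, while Il2rb and the IL-12 receptor chains are characteristic of natural killer (NK) and cytotoxic T cells.

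Markers of several blood cell types were measured, but this alone cannot identify the cells, since 26721 of all 41012 probes were measured. Of fixed marker lists, 19 of 20 T cell genes, 13 of 16 B cell genes, 12 of 17 NK and cytotoxic genes and 12 of 16 monocyte genes were measured, but so were 13 of 18 granulocyte, 11 of 16 platelet and 15 of 18 erythroid genes, which belong to cells that a mononuclear preparation should hold few of. Red signal stood well above background, by the scanner software's own flag, at 57.5% to 65.0% of spots on 30 of the arrays. WT 6 was brighter, at 83.6% of spots, with a median red intensity of 235 against 69.8 to 93.9 on the others. On WT 1, CR 11 and CR-L 12 the ratios of some probes lay near 0. Il18rap read 0.055, 0.040 and 0.044 there, against 0.19 to 1.04 on the other arrays. Il6 read -0.029, -0.020 and -0.014, against -0.31 to -0.061. Not all probes did so, since Il1b probe A_43_P14911 read 0.72, -0.99 and -0.53 there. What this does to the group values was not tested.

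Receptors of the set were detected more often than cytokines, and most classical T cell cytokines were seen on few arrays or none. A probe was analysed when its red signal was well above background on at least 7 arrays. Of the 78 probes 47, for 35 genes, met this, beside 26721 of all 41012 probes. Of those 47, 39 were well above background on all 31 arrays, beside 21232 of all probes. Among cytokines, antagonists and binding proteins, 17 of 35 probes (14 of 29 genes) were kept: Il1b, Il18, Il18bp, Il1rn, Il10, Il15, Il16, Il17b, Il24, Il33 and Il36b on all arrays, Il7 on 28, Il13 on 15 and Il36a on 9. Among receptors 30 of 43 probes (21 of 30 genes) were kept, a share near that of all probes, while the share of cytokines was lower. The T cell growth factor Il2 was well above background on 3 arrays (0 WT, 2 CR and 1 CR-L). Il12a, a subunit of IL-12, was so on 4 arrays (2 WT, 1 CR and 1 CR-L), as was the better of the probes of the type 2 cytokine Il4. Il6, Il5, Il9, Il3, Il12b, Il17a and Il1f10 were each seen on 1 WT array only, and Il1a, Il11 and Il17d on none. Il1r1, the signalling receptor of IL-1, had 3 probes, seen on 3, 1 and 0 arrays.

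Single detections came almost wholly from the brightest array. Of the 12 probes well above background on exactly 1 array, 11 were seen on WT 6 and 1 on WT 7. WT 6 had 68 of the 78 probes well above background, against 41 to 50 on each other array. Of the 31 probes that were not kept, 18 were seen on no other array, including 7 not seen on WT 6 either. Detection also differed between probes of a gene: Il33 and Il22ra2 each had 1 probe seen on all 31 arrays and a second seen on 1 and on 0.

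**Figure D1:**
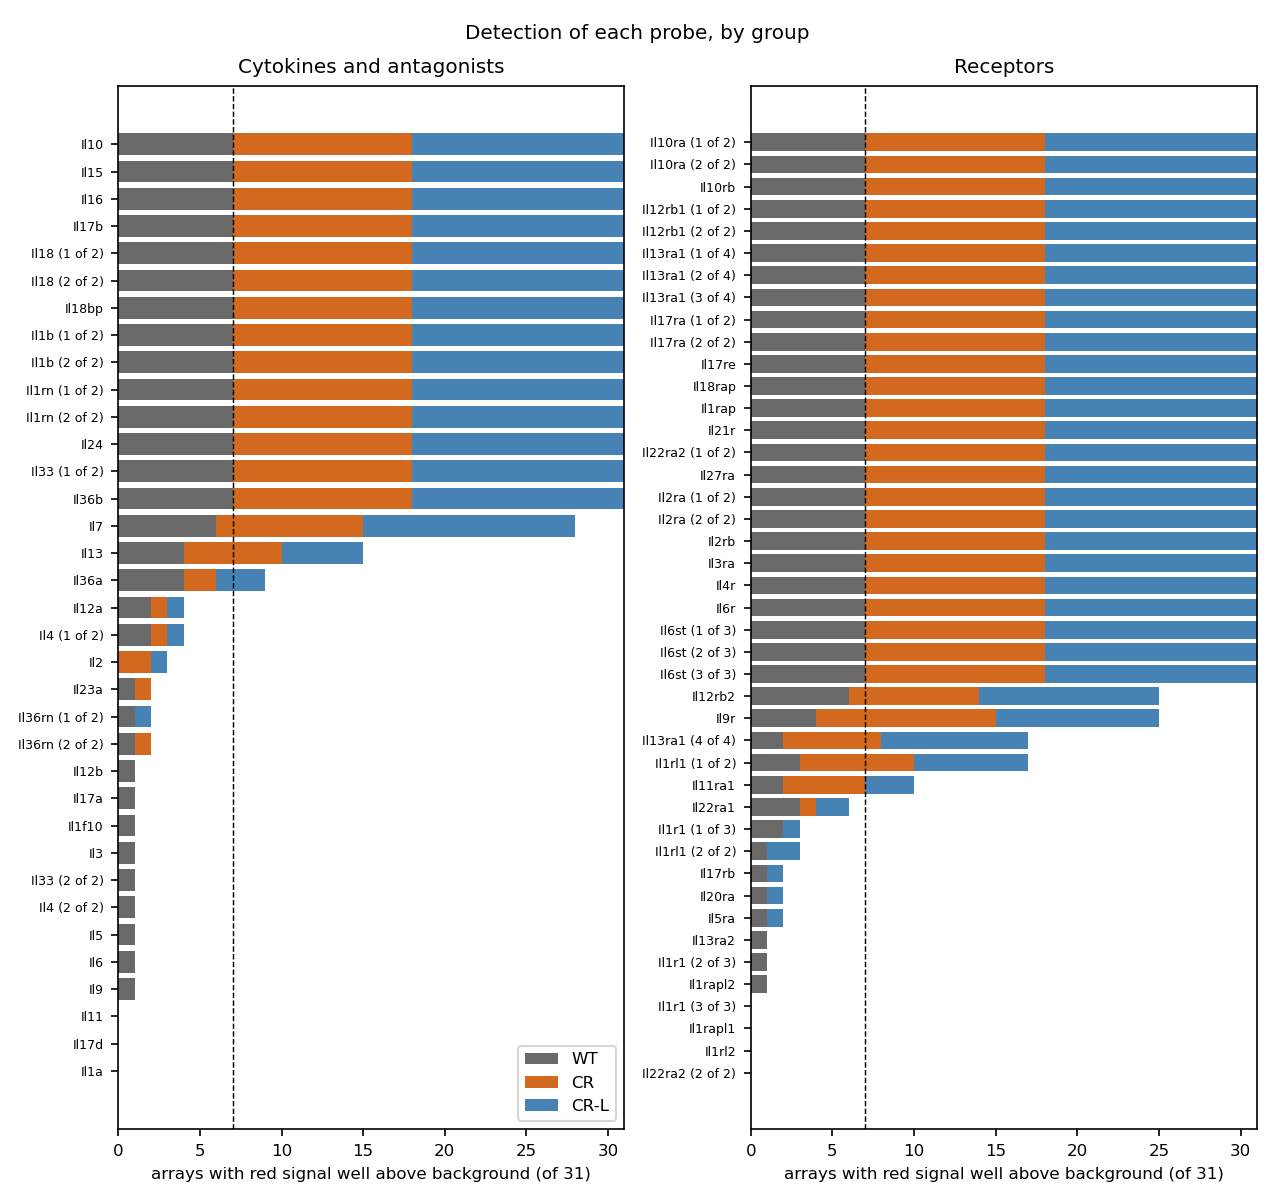
Number of arrays (x axis, of 31) on which each probe's red signal was well above background, for cytokines and antagonists (left) and receptors (right), with WT, CR and CR-L arrays stacked; where a gene has several probes, they are numbered. The dashed line marks the 7 arrays needed for a probe to be kept: 17 of 35 and 30 of 43 probes reach it, and 12 of the 31 bars below it hold a single array.

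The probes that the results below turn on are shown by their first 30 of 60 bases, 5′ to 3′ as the files give them, because their identity decides what each value measures. Il1b and Il18 have a pair of probes each, and the sole Il2rb probe has no position in the array's annotation, so that it is placed only within its transcript, from base 2215. Positions are those of the files, on rat build rn4; whether a probe lies in coding sequence or a UTR was not determined.
Il1b (A_44_P230320, chr3:116964716-116964775, minus strand): aagtcaggtctctcagagccataagaaaac
Il1b (A_43_P14911, chr3:116964465-116964524, minus strand): gctgaaaatgaagagtttcatattgtgtgg
Il18 (A_44_P161233, chr8:53943005-53943064, plus strand): gccaaaaggaagatgatgctttcaaactcg
Il18 (A_44_P531414, chr8:53927434-53927493, plus strand): atcttctgcaacctccaggatcaggaaaaa
Il1rn (A_44_P462661, chr3:2613130-2613189, plus strand): ccagagtatgtgttatttgtgctcatggaa
Il1rap (A_44_P1009757, chr11:76113640-76113699, minus strand): actcagattttgagcatcaagaaagtcacc
Il6r (A_42_P772157, chr2:182078323-182078382, minus strand): tagtgctcattaaggaacattgtcagtttt
Il2rb (A_44_P265709): gtgcagcctgttgacggttgagggtccctg

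No interleukin or receptor probe passed the threshold (limma, Benjamini-Hochberg adjusted p under 0.05 over all 26721 probes kept) in any of the 3 comparisons: 0 of 47 for CR against WT, where 128 of all probes passed (0.479%), 0 of 47 for CR-L against WT, where 927 passed (3.47%), and 0 of 47 for CR-L against CR, where none passed (0%). At an unadjusted p under 0.05 the counts were 8 of 47 for CR against WT (12.2% of all probes), 6 of 47 for CR-L against WT (16.5%) and 0 of 47 for CR-L against CR (2.23%). CR against WT and CR-L against WT use the same WT samples, so their values are not independent. Of the 128 and 927 probes called in all, 100 and 542 were higher than in WT. These splits moved with the scaling, to 63 of 101 and 502 of 970 on the scanner's processed log ratios, 21 of 47 and 455 of 872 with the red channel alone, and 92 of 185 for CR-L against WT after scaling between arrays.

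Median differences from WT were slightly negative for cytokines and slightly positive for receptors, and no test was made over either list. The median difference of the 17 cytokine, antagonist and binding protein probes was -0.053 in CR and -0.059 in CR-L, with 12 and 11 of them below 0. For the 30 receptor probes the medians were 0.040 and 0.043, with 22 and 21 above 0. Over all 26721 probes the medians were 0.011 and 0.0094. The probes kept were more variable within groups than most, with a median within-group SD of 0.18 against 0.14 for all probes. Their differences from WT were known to a median of ±0.17 (half-width of the 95% interval, for each comparison). The half-width ran from 0.098 to 0.75 in CR and from 0.095 to 0.73 in CR-L, so the shift that can be told from 0 differs by probe. These intervals are not adjusted for the number of probes.

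**Figure D2:**
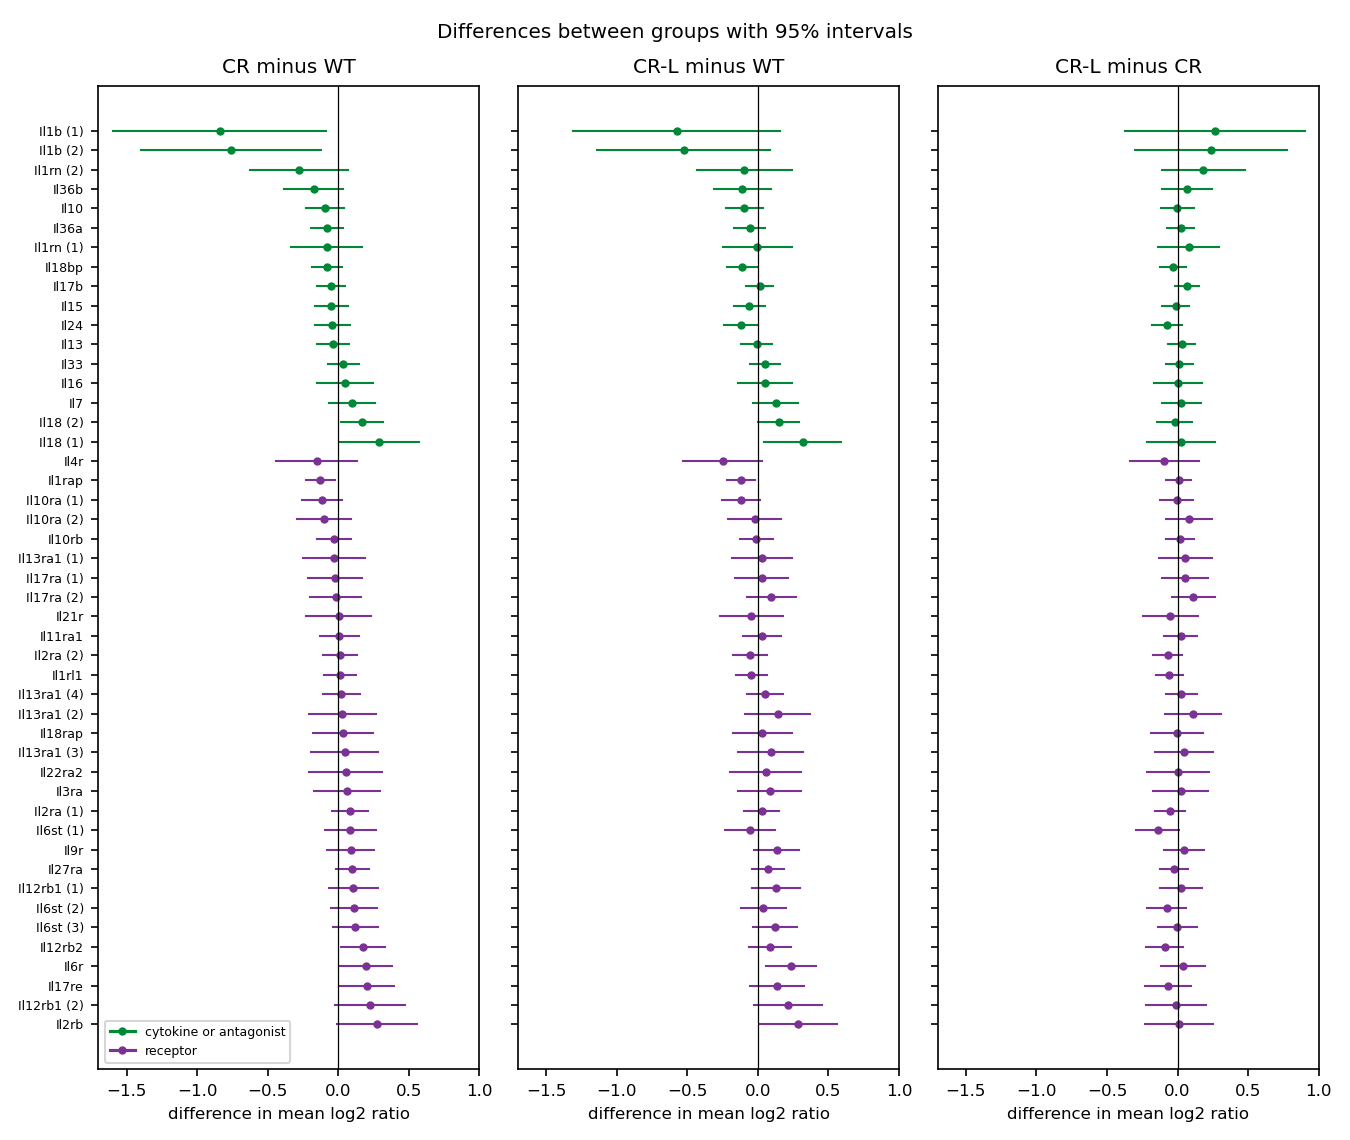
Difference in mean log2 ratio (x axis) with its 95% interval for the 47 probes kept, in CR minus WT, CR-L minus WT and CR-L minus CR; green marks cytokines and antagonists, purple receptors, each sorted by the first panel. The widest intervals are those of the Il1b probes, whose differences from WT in CR are -0.84 and -0.76, and the points of the third panel crowd around 0.

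IL-1β, the chief inflammatory product of monocytes, had the widest spread of the set. Its first probe read from -0.16 through a median of 0.57 to 1.08 in WT, from -0.85 through -0.30 to 0.53 in CR, and from -1.87 through 0.075 to 1.14 in CR-L. The ranges overlap: 6 of the 7 WT samples were above 0 against 2 of the 11 CR samples, while CR-L held both the highest sample (CR-L 1) and the lowest pair (CR-L 6 and CR-L 2). Group means were 0.46 ± 0.43 (SD, n = 7), -0.30 ± 0.45 (n = 11) and -0.068 ± 0.92 (n = 13). The difference of CR from WT was -0.76 ± 0.31 (SE; limma adjusted p = 0.296) and -0.84 ± 0.37 (adjusted p = 0.343) with the second probe. With slide as a block it was -0.76 ± 0.34 (limma adjusted p = 0.360), and within slides CR lay below WT on 6 of 7 slides, by -1.78 to 0.086. Both probes told the same story, with r = 0.995 between them over the 31 arrays (Spearman rho 0.985; permutation p = 1e-05 for each, the smallest that 100000 permutations can give; r = 0.992 without the 2 farthest arrays).

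IL-18, an IL-1 family cytokine that drives interferon-γ release from NK cells, was lowest in WT. Its probe A_44_P161233 read -0.73 to 0.092 in WT (median -0.33), -0.54 to 0.48 in CR (median -0.11) and -0.47 to 0.61 in CR-L (median -0.058). 6 of 7 WT samples were at or below -0.23, and WT 6, the brightest array, was the exception; the 3 ranges overlap. CR exceeded WT by 0.29 ± 0.14 (SE; limma adjusted p = 0.391) and CR-L by 0.32 ± 0.13 (limma adjusted p = 0.215). With probe A_44_P531414 the differences were 0.17 ± 0.073 (limma adjusted p = 0.330) and 0.15 ± 0.070 (limma adjusted p = 0.287). Within slides the first probe was above WT on 7 of 7 slides in CR (0.019 to 0.81) and on 6 of 7 in CR-L (-0.46 to 0.68), and with slide as a block the differences were 0.32 and 0.31. Probe A_44_P531414 was above WT on 6 of 7 slides in CR (-0.087 to 0.28) and on 5 of 7 in CR-L (-0.14 to 0.38). The probes correlated at r = 0.831 over the arrays (rho 0.824).

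Il18bp, the secreted protein that binds and neutralises IL-18, had the opposite sign. It read 0.040 to 0.21 in WT, -0.19 to 0.22 in CR and -0.15 to 0.21 in CR-L, with all WT samples above 0. CR-L lay -0.11 ± 0.051 (SE) from WT, short of the threshold (limma adjusted p = 0.248). Across the arrays Il18 and Il18bp had r = -0.430 (rho -0.436; permutation p = 0.0154, adjusted 0.0644 over 10 fixed pairs of members), and r = -0.417 without the 2 farthest arrays.

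Il1rn, the antagonist that blocks the IL-1 receptor, ranked among the most variable probes of the set after Il1b. Probe A_44_P462661 read -0.21 to 0.52 in WT, -0.55 to 0.57 in CR and -0.68 to 0.67 in CR-L, with group means of 0.079 ± 0.24 (SD, n = 7), -0.20 ± 0.38 (n = 11) and -0.017 ± 0.42 (n = 13). Its difference of 0.18 ± 0.14 (SE) between CR-L and CR was among the 10 smallest p of that comparison (limma adjusted p = 0.9999), and its other probe read 0.078 ± 0.10. The remaining cytokines varied less. Il10, which restrains inflammation, averaged 0.065 ± 0.21, -0.032 ± 0.079 and -0.032 ± 0.13 in WT, CR and CR-L. Il15, a survival factor of NK and memory CD8 T cells, averaged 0.091 ± 0.098, 0.042 ± 0.12 and 0.029 ± 0.12. Il16, a chemoattractant for CD4 T cells, averaged -0.099 ± 0.19, -0.051 ± 0.14 and -0.048 ± 0.26. Il7, needed for T cell survival, averaged -0.084 ± 0.15, 0.015 ± 0.21 and 0.041 ± 0.13. Il36b, of the IL-1 family, averaged 0.066 ± 0.13, -0.11 ± 0.24 and -0.046 ± 0.24.

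The other cytokines kept stayed within a narrow band. Il24 averaged 0.034 ± 0.097 in WT, -0.0081 ± 0.11 in CR and -0.085 ± 0.16 in CR-L, a difference of -0.12 ± 0.060 (SE) between CR-L and WT (limma adjusted p = 0.322). Il17b lay 0.065 ± 0.041 (SE) higher in CR-L than in CR (limma adjusted p = 0.9999). Il33 averaged 0.030 ± 0.082, 0.065 ± 0.11 and 0.079 ± 0.12, and Il13 averaged 0.040 ± 0.044, 0.0015 ± 0.086 and 0.032 ± 0.15. Il36a averaged 0.011 ± 0.075, -0.070 ± 0.10 and -0.047 ± 0.13, and it was well above background on only 4 WT, 2 CR and 3 CR-L arrays.

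Among receptors, Il1rap, the accessory chain that IL-1 and IL-33 receptors need to signal, had the smallest p in CR against WT. It read -0.073 to 0.14 in WT (median 0.050), -0.24 to 0.0056 in CR (median -0.080) and -0.28 to 0.14 in CR-L (median -0.049). 10 of 11 CR samples were below 0 against 3 of 7 WT samples, and the ranges overlap. CR lay -0.13 ± 0.051 (SE) from WT (limma adjusted p = 0.279) and CR-L -0.12 ± 0.049 (limma adjusted p = 0.202). Within slides CR was below WT on 7 of 7 slides (-0.22 to -0.045) and CR-L on 6 of 7 (-0.27 to 0.035); with slide as a block the differences were -0.14 and -0.13.

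Il6r, the ligand-binding chain of the IL-6 receptor, was the member closest to the threshold. It read -0.55 to 0.17 in WT (median -0.21), -0.28 to 0.20 in CR (median -0.079) and -0.30 to 0.31 in CR-L (median -0.084). 6 of 7 WT samples lay at or below -0.18, and WT 7 was the highest of them at 0.17. CR-L exceeded WT by 0.24 ± 0.087 (SE; limma adjusted p = 0.140) and CR by 0.20 ± 0.090 (limma adjusted p = 0.361). Without WT replicate 7 the difference of CR-L from WT was 0.31 (limma adjusted p = 0.0337), and it was past the threshold with array weights (0.30, adjusted p = 0.0341) and without WT 1 and WT 7 (0.33, adjusted p = 0.0331); over all alternatives to the analysis the adjusted p ran from 0.0331 to 0.407. With slide as a block it was 0.22 ± 0.068 (limma adjusted p = 0.0707), and CR-L lay above WT on 6 of 7 slides (-0.0093 to 0.46). Its partner Il6st differed by probe: 1 of its 3 probes lay -0.14 ± 0.076 (SE) in CR-L against CR another -0.077 ± 0.068 and the last -0.0019 ± 0.068 (limma adjusted p = 0.9999 for each).

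Il2rb, the β chain of the IL-2 and IL-15 receptors, read -0.44 to 0.20 in WT (median -0.33), -0.47 to 0.35 in CR (median -0.027) and -0.89 to 0.51 in CR-L (median 0.13). 6 of 7 WT samples were at or below -0.23, WT 1 stood alone at 0.20, and CR-L 10 was lowest of all. CR exceeded WT by 0.27 ± 0.14 (SE; limma adjusted p = 0.435) and CR-L by 0.29 ± 0.14 (limma adjusted p = 0.276). Each was above WT on 6 of 7 slides (-0.048 to 0.68 and -0.29 to 0.61), and with slide as a block the differences were 0.31 and 0.32. When arrays were scaled to 1 spread, the CR difference turned to -0.14 (limma adjusted p = 0.899). The mean of 12 NK and cytotoxic marker genes moved with it, at -0.12 ± 0.19 (SD) in WT, -0.0060 ± 0.27 in CR and -0.0054 ± 0.34 in CR-L; its range was -0.28 to 0.26, -0.42 to 0.48 and -0.81 to 0.46, and 0 of the 12 genes passed the threshold. In blood RNA, more cells of a type and more transcript per cell cannot be told apart.

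The IL-12 receptor chains had the same sign. Il12rb1 (A_44_P593830) averaged -0.059 ± 0.18 (SD), 0.16 ± 0.29 and 0.15 ± 0.28 in WT, CR and CR-L, so that CR exceeded WT by 0.22 ± 0.12 (SE; limma adjusted p = 0.482) and CR-L by 0.21 ± 0.12 (limma adjusted p = 0.391). With its other probe the differences were 0.11 ± 0.085 (limma adjusted p = 0.670) and 0.13 ± 0.082 (limma adjusted p = 0.469). Within slides probe A_44_P593830 was above WT on 4 of 7 slides in CR (-0.10 to 0.93) and on 6 of 7 in CR-L (-0.095 to 0.57). Its highest values were 0.78 in CR and 0.66 in CR-L against 0.11 in WT, and its lowest were -0.14, -0.43 and -0.37, so CR and WT overlapped. Il12rb2, the signalling chain, was well above background on 25 arrays (6 WT, 8 CR and 11 CR-L). It exceeded WT by 0.18 ± 0.075 (SE) in CR (limma adjusted p = 0.327), and CR-L lay -0.091 ± 0.064 from CR (limma adjusted p = 0.9999). Within slides it was above WT on 5 of 7 slides in CR (-0.036 to 0.39) and on 6 of 7 in CR-L (-0.050 to 0.26).

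Il4r, the receptor of IL-4 and IL-13, went the other way and was the most variable receptor probe kept. It read -0.43 to 0.54 in WT, -0.47 to 0.61 in CR and -0.73 to 0.32 in CR-L, and CR-L lay -0.25 ± 0.14 (SE) from WT (limma adjusted p = 0.380). Il10ra, the ligand-binding chain for IL-10, lay -0.12 ± 0.066 (SE) in CR-L from WT with probe A_43_P13056 (limma adjusted p = 0.373); its ranges were -0.22 to 0.34 in WT, -0.12 to 0.068 in CR and -0.41 to 0.17 in CR-L. Its other probe, A_44_P763036, used for the correlations below, differed by -0.023 ± 0.091 (limma adjusted p = 0.936). Il17re, a receptor of IL-17C, exceeded WT by 0.20 ± 0.096 (SE) in CR (limma adjusted p = 0.393). Il22ra2, a soluble decoy for IL-22, and Il3ra, the IL-3 receptor, varied widely with group means close together: -0.0013 ± 0.23 (SD), 0.050 ± 0.20 and 0.053 ± 0.34 for Il22ra2, and -0.12 ± 0.10, -0.062 ± 0.18 and -0.040 ± 0.33 for Il3ra. Il13ra1, which pairs with Il4r, averaged -0.030 ± 0.22, -0.00097 ± 0.21 and 0.11 ± 0.30 with probe A_44_P389072.

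**Figure D3:**
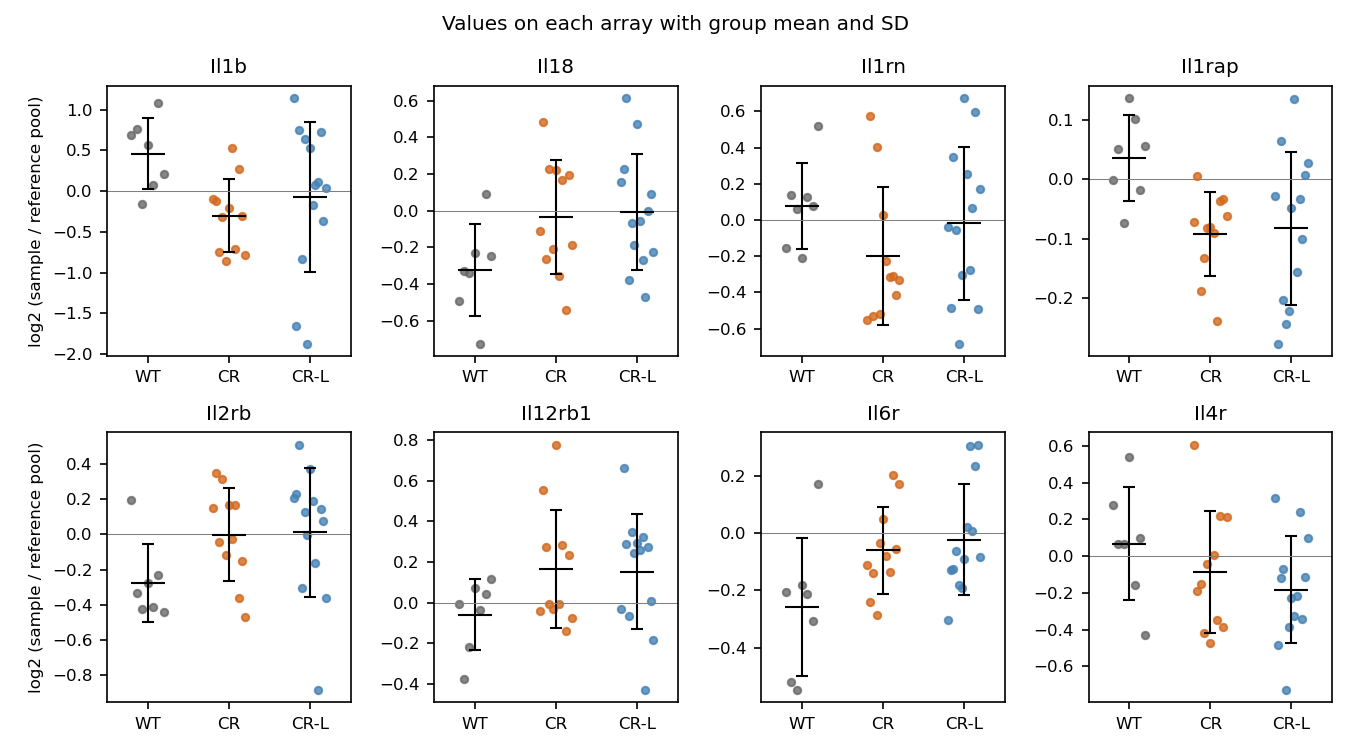
Log2 ratio of sample to reference pool (y axis) on each array for 8 members, by group (7 WT, 11 CR and 13 CR-L points), with the group mean and SD as bars. The groups overlap in every panel; single arrays stand apart, such as WT 1 for Il2rb (0.20), WT 7 for Il6r (0.17) and CR-L 6 and CR-L 2 at the bottom of Il1b.

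Leptin in suckling was not accompanied by a detectable shift of any member. Between CR-L and CR the 47 differences ran from -0.14 to 0.26 with a median of 0.013, and their 95% intervals had a median half-width of 0.15. The widest, ±0.64, belonged to Il1b, so that a shift of Il1b of that size might not have been told from 0. Besides those named above, the 10 smallest p belonged to Il17ra (0.11 ± 0.075, SE), Il24 (-0.077 ± 0.053), Il2ra (-0.070 ± 0.051), Il1rl1 (-0.059 ± 0.046, well above background on 17 arrays) and Il13ra1 (0.11 ± 0.098), all with a limma adjusted p of 0.9999.

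Of 46 signalling genes of these pathways that carry no Il symbol, 42 were measured. In CR against WT 1 passed and was lower (0.105% of all probes passed as lower), in CR-L against WT 2 passed, 1 lower and 1 higher (1.44% and 2.03% of all probes), and in CR-L against CR 0 passed. Traf6, the ubiquitin ligase that links IL-1 and Toll-like receptors to NF-κB, read 0.043 to 0.83 in WT, -0.66 to 0.45 in CR and -0.87 to 0.33 in CR-L. It fell by 0.60 ± 0.14 (SE) in CR (limma adjusted p = 0.0483) and by 0.68 ± 0.14 in CR-L (limma adjusted p = 0.00491), and it was below WT on 7 of 7 slides in both. The call in CR was lost in 22 of 31 analyses that left out 1 array and under 8 of 17 other alternatives (adjusted p = 0.0144 to 0.368). Slide as a fixed block was among them (limma adjusted p = 0.0756), while with slide as a random block the call stayed (limma adjusted p = 0.0452). In CR-L the call was lost under 1 of 17. Gata3, a transcription factor of type 2 helper T cells, rose by 0.35 ± 0.097 (SE) in CR-L (limma adjusted p = 0.0395) with 1 probe and not with the other (0.21 ± 0.072, adjusted p = 0.114). This call was lost in 10 of 31 leave-one-out analyses and under 8 of 17 alternatives (adjusted p = 0.0148 to 0.231). In CR the same probes lay 0.32 and 0.26 above WT (limma adjusted p = 0.130 and 0.0889). Between CR-L and CR they differed by 0.026 and -0.058. Tollip, an inhibitor of IL-1 receptor signalling, came next, at -0.23 ± 0.069 (SE) in CR (limma adjusted p = 0.108) and -0.23 ± 0.067 in CR-L (limma adjusted p = 0.0522), and it passed in CR-L under 6 of 17 alternatives. Its second probe read -0.13 in CR (limma adjusted p = 0.367) and -0.088 in CR-L (limma adjusted p = 0.493). In CR-L against CR the smallest p belonged to Csf2rb, the shared β chain of the IL-3 and IL-5 receptors (0.12 ± 0.044, SE), Jak1 (0.17 ± 0.10) and Bcl6 (0.17 ± 0.10), all with a limma adjusted p of 0.9999; the other Jak1 probes read 0.030 and -0.036. The other Bcl6 probe read 0.097 in that comparison, and against WT the Bcl6 probes differed in sign, at 0.14 and -0.16 in CR and 0.31 and -0.067 in CR-L.

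Some members correlated across samples with markers of a cell type or of activation. Each of the 35 genes, at its brightest probe, was correlated over the 31 arrays with the mean log2 ratio of 8 marker lists, and 28 of the 280 correlations passed (permutation test, two-sided, Benjamini-Hochberg adjusted p under 0.05 over all 280). Both values of a point come from 1 array. By list, 8 genes were called with monocyte markers, 7 with activation and NF-κB target genes, 6 with NK and cytotoxic markers, 3 with T cell, 2 with B cell, 1 each with platelet and erythroid and 0 with granulocyte markers. The lists themselves were correlated, with r = 0.648 between monocyte and activation means and r = -0.627 between T and B cell means, so these are not separate relations.

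Il2rb followed the NK and cytotoxic list more closely than any other member followed any list, with r = 0.918 (rho 0.900; permutation p = 1e-05 for each, the smallest possible; adjusted p = 0.00056; r = 0.888 without the 2 farthest arrays). It was 0.815 within WT, 0.924 within CR, 0.961 within CR-L and 0.902 after centring on slides. Il18 had r = 0.708 with the same list (rho 0.692, permutation p = 4e-05; adjusted p = 0.00056; 0.669 without the 2 farthest), at 0.874 within CR and 0.850 within CR-L but -0.393 within WT. Il12rb1 had r = 0.701 (rho 0.711, permutation p = 3e-05; adjusted p = 0.0008; 0.597 without the 2 farthest), at 0.731 and 0.790 within CR and CR-L and 0.018 within WT. Whether the relation differs between the groups was not tested. Il12rb2 was positive (0.543) and Il21r, the IL-21 receptor, and Il18bp were negative (-0.537 and -0.495).

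**Figure D4:**
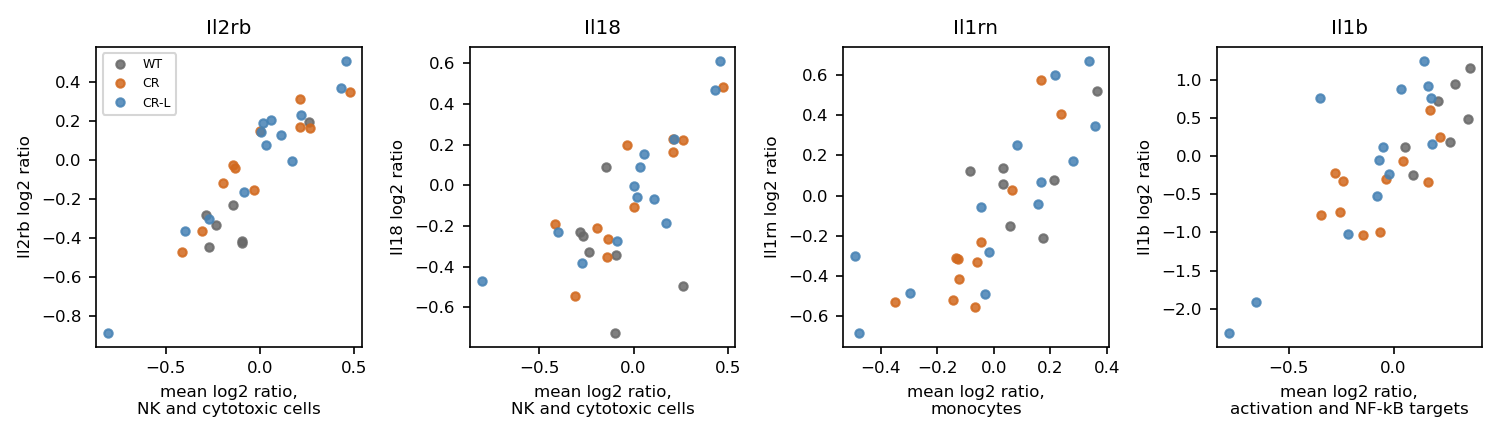
Log2 ratio of Il2rb, Il18, Il1rn and Il1b (y axes) against the mean log2 ratio of a marker list (x axes) on the 31 arrays, coloured by group. The points of Il2rb lie along a line (r = 0.918), those of Il1b rest partly on CR-L 6 and CR-L 2 at the lower left (r = 0.791 with them, 0.627 without), and in the Il18 panel WT points scatter off the line of the other groups.

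Il1rn followed the monocyte list, with r = 0.804 (rho 0.841, permutation p = 1e-05; adjusted p = 0.00056; 0.822 without the 2 farthest arrays), at 0.448 within WT, 0.878 within CR and 0.827 within CR-L. Il10ra (0.718), Il36b (0.705), Il13ra1 (0.697), Il1rap (0.631), Il1b (0.579) and Il10 (0.516) were also positive with it, and Il27ra, the IL-27 receptor, was negative (-0.559). Il1b was closest to the activation list, of early response genes and NF-κB targets such as Nfkbia and Tnfaip3 and with no member of the set in it: r = 0.791 (rho 0.713, permutation p = 3e-05; adjusted p = 0.00056) and 0.627 without CR-L 6 and CR-L 2, at 0.736, 0.640 and 0.836 within WT, CR and CR-L. Il1rap (0.713), Il10 (0.616), Il10ra (0.581) and Il4r (0.575) were positive with that list, and Il27ra (-0.641) and Il9r (-0.596) negative. Of its 20 measured genes, 9 passed as lower in CR-L than in WT (1.44% of all probes did) and 0 in CR; its mean was 0.23 ± 0.12 (SD) in WT, -0.070 ± 0.20 in CR and -0.12 ± 0.31 in CR-L, and ranged from 0.054 to 0.36, -0.35 to 0.22 and -0.79 to 0.18. Its part in the differences of Il1b and Il1rap from WT was not tested.

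Other relations with cell lists were few. Il24 followed B cell markers (r = 0.658, rho 0.593; permutation adjusted p = 0.00229; 0.664 without the 2 farthest arrays), at 0.928 within CR-L, 0.389 within CR and 0.248 within WT. Il1rap (0.542) was also positive with B cell markers. Il36b (-0.597), Il1rap (-0.513) and Il1rn (-0.504) were negative with T cell markers, Il10ra (-0.555) with platelet markers, and Il13 was positive with erythroid markers (0.519, and 0.392 without the 2 farthest). That r of Il13 was 0.633 within WT, 0.099 within CR and 0.723 within CR-L. On the authors' own values it fell to 0.171, and Il13 was not well above background on every array. Il15, Il16, Il7, Il6r, Il6st, Il17ra and Il3ra, among others, passed with none.

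**Figure D5:**
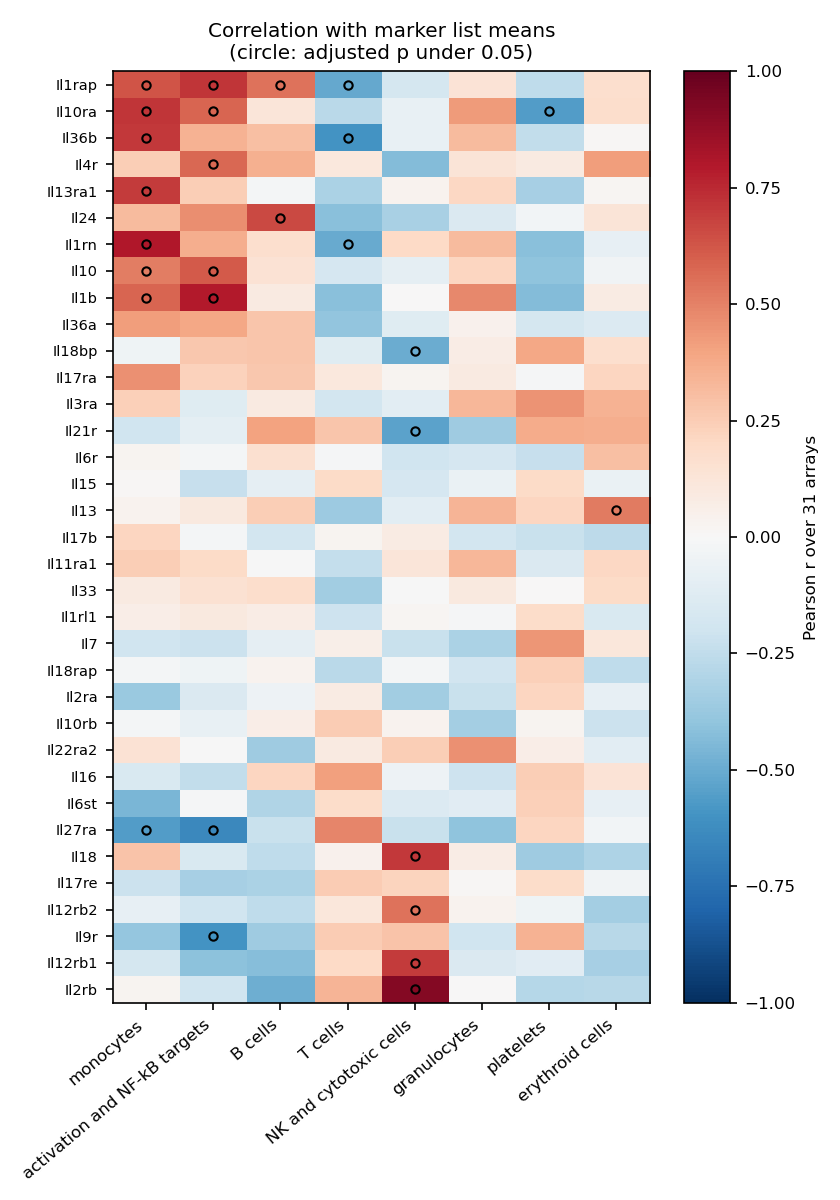
Pearson r over 31 arrays (colour) between each of 35 members (rows, 1 probe each, ordered by r with the NK and cytotoxic list minus r with the monocyte list) and the mean of 8 marker lists (columns); circles mark the 28 of 280 with an adjusted p under 0.05. Il1rap, Il10ra, Il10 and Il1b have circles in both the monocyte and the activation column, Il1rn in the monocyte column, and circles for positive r stand in the NK column for Il2rb, Il12rb1, Il12rb2 and Il18.

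Members that act together were compared in pairs listed by function. Of 21 pairs 10 had both partners measured: 2 of a ligand with its receptor, 5 of receptor chains with each other, 2 of a cytokine with its antagonist or binding protein, and Il1b with Il18. By Pearson's r 1 pair passed, Il10 and Il10ra, with r = 0.558 (rho 0.456, permutation p = 0.0105; permutation p of r 0.00118, adjusted 0.0118; 0.416 without the 2 farthest arrays; 0.577 after centring on slides). By rank, Il1b with Il1rn (rho 0.484, adjusted p = 0.0497, permutation) and Il18 with Il18bp (rho -0.436, adjusted p = 0.0497) passed as well. The other ligand and receptor pair, Il15 with Il2rb, had r = -0.313 and did not pass. Nor did Il6r with Il6st (r = 0.060), Il1b with Il18 (0.047) or Il12rb1 with Il12rb2 (0.266).

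How far a member's values can be trusted was read from genes with several probes kept. Of 16 probe pairs within 9 genes, 14 were positively correlated with a permutation p adjusted over the 16 under 0.05. The lowest were a pair of Il6st probes (r = 0.204, adjusted p = 0.270, rho 0.144) and the Il2ra pair (0.351, adjusted p = 0.0563, rho 0.192). Il1rn (0.802), Il12rb1 (0.712), Il17ra (0.614), the 6 pairs of Il13ra1 (0.468 to 0.797) and Il10ra (0.392) lay between these and Il1b. The Il6st and Il2ra values, and the difference of Il10ra between CR-L and WT given above, rest on which probe is read. A correlation over arrays does not show that probes agree in a group difference.

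Since Il1b, Il1rn and Il1rap correlated with monocyte markers, Il1b and Il1rap also with activation markers (Il1rn did not pass there, r = 0.360, permutation adjusted p = 0.213), and NF-κB binds κB sites (searched here as 3 G, any 5 bases and 2 C), the 250 bases before the start of these 3 genes are given, from RefSeq on build GRCr8, 5′ to 3′ on the gene's strand, with every match on either strand in capitals. Promoters were matched by symbol for 46 of the 59 genes. Matches overlap one another in Il1rap, where there are 8, while Il1rn has 1 and Il1b has 0. Only this pattern in these 250 bases was searched, so 0 matches does not show that Il1b lacks κB sites.
Il1b (chr3:137036582-137036831, minus strand): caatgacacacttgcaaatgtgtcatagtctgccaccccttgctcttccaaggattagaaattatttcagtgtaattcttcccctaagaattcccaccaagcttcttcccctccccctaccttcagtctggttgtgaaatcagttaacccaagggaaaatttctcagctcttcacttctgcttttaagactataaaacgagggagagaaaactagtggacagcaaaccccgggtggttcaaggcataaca
Il1rn (chr3:27520072-27520321, plus strand): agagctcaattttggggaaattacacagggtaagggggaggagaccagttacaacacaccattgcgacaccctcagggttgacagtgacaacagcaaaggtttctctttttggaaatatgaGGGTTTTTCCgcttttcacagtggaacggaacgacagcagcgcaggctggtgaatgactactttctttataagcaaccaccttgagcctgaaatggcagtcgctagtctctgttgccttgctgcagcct
Il1rap (chr11:87704343-87704592, minus strand, the first of 2 starts): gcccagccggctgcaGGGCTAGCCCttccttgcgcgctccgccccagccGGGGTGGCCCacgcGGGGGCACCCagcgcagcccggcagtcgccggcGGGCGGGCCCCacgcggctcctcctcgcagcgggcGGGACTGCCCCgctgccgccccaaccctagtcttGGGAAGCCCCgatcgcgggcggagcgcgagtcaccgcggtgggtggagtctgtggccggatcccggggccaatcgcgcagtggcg

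These letters are common, so a match describes the sequence and no more. They occur in 42.32% of all 33469 RefSeq promoters in the same 250 bases, and in 22 of the 46 member genes matched (47.83%). A Stat site, TTCNNNGAA, occurs in 7.67% of all promoters and in 3 member genes, Il12rb2, Il24 and Il36b. The core of interferon response elements, GAAA, any 2 bases and GAAA, occurs in 3.41% and in 5 member genes, among them Il12rb1, Il1rap, Il36b and Il6st. The shares over all promoters count each listed start, while a member gene was counted when any of its starts matched. These shares are therefore not like for like. The motifs were searched on both strands and chosen after the expression values had been seen.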

How the data were processed

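Per the labels and file headers, RNA of 31 PBMC samples was labelled with Cy5 and hybridised with a Cy3 pool to Agilent rat 60-mer arrays (positions on build rn4). The authors deposited each array's Feature Extraction 10.7.3.1 output, which holds red and green spot intensities, not normalised, and a log10 ratio, and a series table of log2 intensities; that table followed the red channel (r of at least 0.993 on each array), with its normalisation not given in the sources used here.

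From the deposited mean intensities, background was corrected by normexp with offset 50, arrays were normalised by loess with controls at weight 0, outlier-flagged values (0.408%) were dropped, and spots of a probe were averaged. Probes well above background in red on at least 7 arrays were kept (26721 of 41012). limma 3.58.1 (R 4.3.3) was fitted to all 31 arrays, two-sided, with Benjamini-Hochberg adjustment over all probes and a threshold of 0.05; the script was tested on simulated data. Each correlation over arrays used 100000 permutations. The array count limits precision. Slide (8 slides of up to 4 arrays, 1 without WT) was fitted as a fixed and as a random block and examined within slides. Members and gene lists were chosen with earlier results of these data known. Named are the 10 member probes with the smallest p per comparison, every cytokine kept, the 6 receptor genes with the largest SD, and pathway genes past the threshold or among the 3 smallest p. Alternatives covered background correction, scaling, channel, the authors' table, filters, probe choice, blocks, weights and omitted arrays. Nothing shows whether samples of a group came from separate litters.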

Additional observations from a re-analysis of the deposited data

Results flagged for a closer look

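Only WT, with 7 samples, was small enough for a test of single outlying samples, and 3 of its 47 probes had a sample far from the rest (Dixon's ratio above 0.568); chance alone flags about 1 group in 20. Il11ra1, the IL-11 receptor, read 0.49 on WT 6, the brightest array, against -0.20 to 0.026 on the other WT arrays, and it was well above background on 10 arrays in all. Il2rb read 0.20 on WT 1 against -0.44 to -0.23, and WT 1 also had the highest NK and cytotoxic marker mean of its group (0.26). Il9r read 0.35 on WT 5 against -0.015 to 0.11.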

How the results depend on the processing

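The count of 0 members past the threshold held under each of 17 alternatives and 31 omissions of 1 array for CR against WT and CR-L against CR. For CR-L against WT it ran from 0 to 1 when 1 array was left out, and was 1 with array weights and without WT 1 and WT 7 together (each time Il6r). The count over all probes was less stable. For CR against WT (128) it was 51 with normexp offset 0, 1 after scaling between arrays, 47 with the red channel alone, 0 in the authors' table, 204 with probes seen on all arrays, 229 with only the 2 groups compared and 443 with array weights. It ran from 20 (without WT 4) to 245 (without CR 9) when 1 array was left out. For CR-L against WT (927) it was 185 after scaling, and ran from 492 (without WT 4) to 1292 (without CR-L 10). At an unadjusted p under 0.05, limma gave 595 probes for CR-L against CR, where 0 passed. Il2rb in CR against WT was the only named difference to reverse, to -0.14 after scaling between arrays. Of the 10 pairs of members 3 passed by Spearman rho in place of 1. The causes were not tested.

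Replicate numbers do not pair the samples: same-numbered samples of different groups had deviations correlated at -0.432 to 0.438 (median 0.049), 7 of 25 above 0.1. With a replicate block CR against WT had 265 calls, and no member was called. Same-slide samples had a median correlation of 0.025. Of the called cell list correlations 26 to 28 kept their sign and at least 0.5 times their size after centring on slide or group, on other values and without 2 arrays. Red signal near background limits the 31 probes not kept.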
